A study of Mus musculus with 16 samples.

Results

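The 9 genes described here carry interferon signals from the cell surface to the genome. They are the receptor chains Ifnar1, Ifnar2 and Ifngr1, the signal transducer Stat2, and the interferon regulatory factors Irf1, Irf2, Irf3, Irf7 and Irf9. They were taken by gene symbol from the deposited table of 54532 genes, and all 9 were found. RNA sequencing was done on mouse hepatocytes, which the labels call a cell line, in 16 libraries of 5 groups. Hepatocytes were grown alone (monoculture, n = 3), beside cancer cells wild type for Phgdh (WT, n = 3), or beside cancer cells knocked out for Phgdh (KO, n = 3). Further WT (n = 3) and KO (n = 4) co-cultures received an inhibitor of the chemokine receptor CXCR2. Phgdh is the enzyme that commits a glycolysis intermediate to serine synthesis, and the series concerns hepatocyte serine in liver metastasis of pancreatic cancer. By the labels the knockout is in the cancer cells, while every library comes from hepatocytes. The series' design text instead names HY19636 cancer cells as the sequenced material. The labels were followed. They give no compound name, dose, vehicle, duration or culture format for the inhibitor, no clone number for the knockout and no age or strain. No hepatocytes received the inhibitor without cancer cells, so an effect of the inhibitor on hepatocytes alone cannot be told apart from one that needs the co-culture. The labels do not state separate cultures for the replicates, and the tests therefore reflect library-to-library spread that may be technical.

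Type I interferons bind the receptor pair IFNAR1 and IFNAR2, whose kinases TYK2 and JAK1 phosphorylate STAT proteins. STAT2 and IRF9 are subunits of the complex ISGF3, which binds interferon-stimulated response elements (ISRE) in the promoters of antiviral genes. Interferon gamma binds IFNGR1 and IFNGR2, and through JAK1, JAK2 and STAT dimers it acts on gamma-activated sites (GAS). IRF3 and IRF7 are activated after cells sense viral nucleic acid and switch on the interferon genes themselves. IRF1 activates, and IRF2 often represses, genes of antigen presentation and defence. Hepatocytes respond to both interferon classes, and STAT2, IRF7, IRF9 and IRF1 are themselves interferon-induced in many cells, which makes their transcripts readouts as well as parts of the pathway.

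The promoters of Stat2, Irf7, Irf9 and Irf1 are shown because these 4 genes changed most with the inhibitor. Each window runs from 250 bases before to 50 after a RefSeq start (GRCm38.p6) and is written 5′ to 3′ along the gene, with motif matches in capitals. The ISRE core was searched as GAAANNGAA and the GAS as TTCNNNGAA, on both strands. The GAS pattern reads the same on both strands. The Stat2 window, chr10:128270248-128270547 on the plus strand, holds 1 ISRE core, on the minus strand, at position -221 from the start site. The first Irf1 window, chr11:53769764-53770063 on the plus strand, holds 1 GAS, at position -90. The Irf7 window, chr7:141266375-141266674 on the minus strand, and the first Irf9 window, chr14:55603735-55604034 on the plus strand, hold neither string. Both Irf9 windows begin after 55603571, the start of the gene in the deposited table, so no sequence before that start was searched.
Stat2: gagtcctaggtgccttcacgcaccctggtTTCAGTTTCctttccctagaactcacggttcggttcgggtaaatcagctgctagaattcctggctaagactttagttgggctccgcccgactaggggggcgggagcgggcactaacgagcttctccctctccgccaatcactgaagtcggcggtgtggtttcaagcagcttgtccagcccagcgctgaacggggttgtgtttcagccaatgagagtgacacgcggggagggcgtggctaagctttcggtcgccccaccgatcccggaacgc
Irf7: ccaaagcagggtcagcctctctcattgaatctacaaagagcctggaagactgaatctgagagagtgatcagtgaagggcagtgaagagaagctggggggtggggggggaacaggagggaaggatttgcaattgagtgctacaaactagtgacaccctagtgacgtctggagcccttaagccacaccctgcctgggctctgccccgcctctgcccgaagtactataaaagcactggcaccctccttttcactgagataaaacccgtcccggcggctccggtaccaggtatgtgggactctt
Irf9: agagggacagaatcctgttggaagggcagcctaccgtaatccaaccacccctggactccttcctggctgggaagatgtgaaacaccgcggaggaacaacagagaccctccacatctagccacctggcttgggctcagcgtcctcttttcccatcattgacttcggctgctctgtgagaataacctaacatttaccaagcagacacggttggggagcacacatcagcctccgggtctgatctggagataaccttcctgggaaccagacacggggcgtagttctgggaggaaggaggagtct
Irf1: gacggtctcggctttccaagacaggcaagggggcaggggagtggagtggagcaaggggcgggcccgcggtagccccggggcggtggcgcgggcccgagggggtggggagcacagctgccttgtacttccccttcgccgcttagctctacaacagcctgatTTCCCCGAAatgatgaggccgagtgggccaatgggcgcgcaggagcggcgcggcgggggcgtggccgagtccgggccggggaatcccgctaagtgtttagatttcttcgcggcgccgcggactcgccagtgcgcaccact
All 9 genes had RefSeq windows, 11 in all. The ISRE core was also found in Irf2, and the GAS also in Irf2, Ifnar1 and Ifnar2, while Irf3, Ifngr1, the second Irf9 window and the second Irf1 window held neither. Over all 32851 promoter windows of the same length, 8.56% hold the ISRE core and 8.30% the GAS. A match describes the letters only. No match says only that these letters are not in this window.

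In the deposited table the 9 genes lie at the GENCODE M21 coordinates of GRCm38. Stat2 (ENSMUSG00000040033) spans 128270559 to 128292849 on chromosome 10 and Irf1 (ENSMUSG00000018899) spans 53770014 to 53778374 on chromosome 11. Irf7 (ENSMUSG00000025498) spans 141262706 to 141266481 on chromosome 7, and Irf9 (ENSMUSG00000002325) spans 55603571 to 55610030 on chromosome 14. Irf3 (ENSMUSG00000003184) lies on chromosome 7 and Irf2 (ENSMUSG00000031627) on chromosome 8. Among the receptors, Ifnar1 (ENSMUSG00000022967) and Ifnar2 (ENSMUSG00000022971) are on chromosome 16, and Ifngr1 (ENSMUSG00000020009) is on chromosome 10. Levels are FPKM, fragments scaled to gene length and library depth, as the authors gave them. Whole fragments could be recovered from them, at 15.002 to 21.3 M per library. Fold changes are differences of mean log2(FPKM + 1), which understate the change of genes of low level, and ± stands for the SD where a level is given and for the SE where a log2 difference is given. A change was called at an adjusted p under 0.05 by limma, with Benjamini-Hochberg adjustment over the 11395 genes with a mean of at least 1 FPKM. All 9 genes passed that filter. Irf7 is the 1 among them with a mean under 1 FPKM over the 9 libraries without the inhibitor, so it passed through the inhibitor groups.

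Some features of the libraries bear on all results. WT replicate 1 stood apart from the other libraries of its group, with a chi-square per degree of freedom of 18.8 and 22.5 against 4.56 between WT replicates 2 and 3. Counts of the 9 genes called stayed within 1.5 times without it. Of the 15 hepatocyte markers, 12 passed the filter, but Cps1, Tat and Cyp3a11 did so through the inhibitor groups. Without the inhibitor their group means were at most 0.262, 0.409 and 0.0657 FPKM. Alb, Ttr and Hnf4a were present, but Pck1 and Cyp2e1 averaged at most 0.173 and 0.225 FPKM in any group. Of the 7 biliary markers, 5 passed the filter, among them Krt19 and Spp1, while Cftr averaged at most 1.16 FPKM in any group. The summed biliary markers, of which Spp1 was the largest part in every group, ran from 1225 to 1244 FPKM in monoculture. They ran from 411 to 434 in WT and 428 to 448 in KO co-culture. With the inhibitor they ran from 556 to 565 beside WT and 554 to 602 beside KO cells. Mean Krt19 rose and mean Spp1 fell with it in both genotypes. Of the 12 pancreatic cancer markers 4 passed the filter, Epcam reached at most 0.207 FPKM and Tff1 and Agr2 were at 0. The summed hepatocyte markers ran from 309 to 314 FPKM in monoculture, 165 to 189 in WT and 196 to 212 in KO co-culture, 869 to 887 with WT cells and inhibitor, and 1111 to 1169 with KO cells and inhibitor. The summed pancreatic cancer markers, of which Msln made up the most in every group and Krt19 much of the rest, ran from 211 to 332 FPKM without and 570.0 to 651 FPKM with the inhibitor. The share of mitochondrially encoded fragments was 3.25 to 4.57% without and 1.86 to 2.11% with the inhibitor. The part of these shifts in the results was not tested. In bulk libraries a change in the share of cells and a change per cell cannot be told apart.

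With the CXCR2 inhibitor, Irf7 and Stat2 rose to levels many times those of either co-culture without it, Irf9 and Irf1 more than doubled in FPKM, and the receptor chains moved little. Of the 9 genes, 7 rose and 1 fell beside WT cells, and 6 rose and 1 fell beside KO cells. Over all genes tested, 33.5% rose and 33.0% fell beside WT cells, and 34.8% rose and 34.7% fell beside KO cells. The median log2 fold change of the 9 genes was 0.27 beside WT and 0.30 beside KO cells, against -0.01 over all genes tested in each. The plot of levels by library shows the 9 genes side by side.

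**Figure D1:**
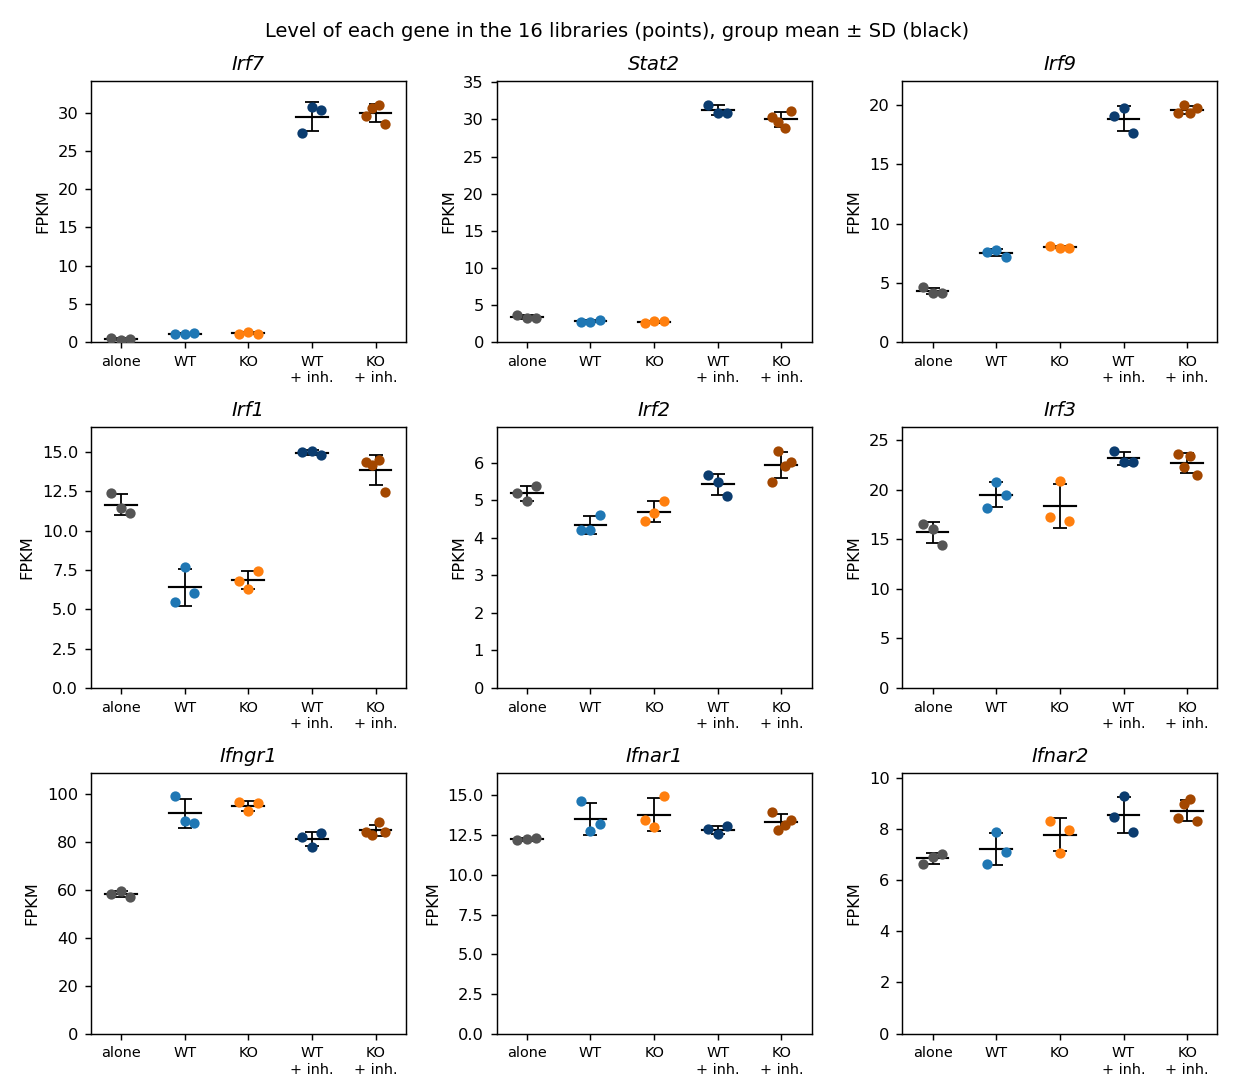
Level in FPKM of each of the 9 genes (vertical axes, starting at 0) in the 16 libraries, by group (horizontal axes; alone is monoculture, inh. is the CXCR2 inhibitor). Points are libraries and black marks are the group mean ± SD. Irf7 lies at 0.282 to 1.37 FPKM without and 27.3 to 31.1 FPKM with the inhibitor, while Ifnar1 stays between 12.2 and 14.9 FPKM in every library.

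Irf7, the factor that amplifies interferon gene transcription, stood at 1.05, 1.06 and 1.21 FPKM in the WT co-cultures and at 27.3, 30.8 and 30.3 FPKM with the inhibitor. In the KO co-cultures it stood at 1.12, 1.37 and 1.08 FPKM, and at 29.6, 30.7, 31.1 and 28.5 FPKM with the inhibitor. Every library with the inhibitor lay far above every library without it, in both genotypes. The ratio of mean FPKM was 26.6 beside WT and 25.1 beside KO cells. The log2 fold change was 3.85 ± 0.07 (limma, adjusted p = 5.03e-15) beside WT cells, the 18th highest of the 11395 genes tested. Beside KO cells it was 3.82 ± 0.07 (limma, adjusted p = 1.95e-15), the 22nd highest. These levels rest on 64 to 109 fragments per co-culture library without the inhibitor and 1768 to 2555 with it. Irf7 shares 45 bases with Phrf1 on the other strand. Group means of Phrf1 were 13.4 to 14.3 FPKM without the inhibitor, and it rose with it by 0.31 and 0.44 on the log2 scale. The part of reads from that overlap in the Irf7 values was not tested.

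Stat2, the transducer that belongs to ISGF3 and to no interferon gamma complex of the classical pathway, read 2.73, 2.74 and 3.01 FPKM beside WT cells. With the inhibitor these rose to 32.0, 30.8 and 30.9 FPKM. Beside KO cells the values were 2.55, 2.81 and 2.81 FPKM without and 30.4, 29.7, 28.9 and 31.2 FPKM with the inhibitor. The groups with and without the inhibitor did not overlap, and the ratio of mean FPKM was 11.04 beside WT and 11.02 beside KO cells. The log2 fold changes were 3.07 ± 0.05 beside WT (limma, adjusted p = 2.20e-15) and 3.06 ± 0.05 beside KO cells (limma, adjusted p = 7.22e-16). They ranked 56th and 59th of all genes tested.

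Irf9, the DNA-binding subunit of ISGF3, was at 7.64, 7.75 and 7.19 FPKM beside WT cells and at 19.1, 19.7 and 17.7 FPKM with the inhibitor. Beside KO cells it was at 8.15, 7.98 and 7.97 FPKM and at 19.4, 20.02, 19.3 and 19.8 FPKM with the inhibitor. All libraries with the inhibitor were higher. The log2 fold change was 1.22 ± 0.05 beside WT (limma, adjusted p = 1.47e-11) and 1.19 ± 0.04 beside KO cells (limma, adjusted p = 7.32e-12). Irf9 shares 123 bases with Rnf31 on the same strand, and Rnf31 also rose, by 0.86 and 0.84 on the log2 scale.

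Irf1, an early interferon-induced activator, was at 5.43, 7.69 and 6.05 FPKM beside WT cells and at 15.005, 15.1 and 14.8 FPKM with the inhibitor. Beside KO cells it was at 6.78, 6.31 and 7.46 FPKM without and 14.4, 14.2, 14.5 and 12.4 FPKM with the inhibitor. No library with the inhibitor fell into the range without it, and KO with inhibitor replicate 4 was the low one of its group. The log2 fold change was 1.12 ± 0.09 beside WT (limma, adjusted p = 6.53e-08) and 0.92 ± 0.09 beside KO cells (limma, adjusted p = 2.41e-07).

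The other regulatory factors changed less. Irf2, which competes with IRF1 for the same sites, rose by 0.27 ± 0.06 and 0.28 ± 0.05 on the log2 scale beside WT and KO cells (limma, adjusted p = 9.06e-04 and 2.97e-04). Its libraries ran from 4.20 to 4.99 FPKM without and 5.12 to 6.33 FPKM with the inhibitor in co-culture. Irf3, the sensor-activated factor that most cells make all the time, rose by 0.24 ± 0.07 and 0.30 ± 0.07 (limma, adjusted p = 0.0108 and 0.00146). Its co-culture libraries ran from 16.9 to 20.9 FPKM without and 21.5 to 24.0 FPKM with the inhibitor. Irf3 shares 1065 bases with Bcl2l12 on the other strand, and whether counting used strand is not given in the sources used here. For both factors the ranges with and without the inhibitor did not overlap.

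The receptor chains also changed little with the inhibitor, and not all in the same direction. Ifngr1, the ligand-binding chain for interferon gamma, fell by 0.18 on the log2 scale beside WT cells (SE 0.05, limma, adjusted p = 0.00359). Beside KO cells it fell by 0.16 (SE 0.04, limma, adjusted p = 0.00348). It was at 99.0, 88.8 and 88.0 FPKM in the WT co-cultures and at 82.0, 77.8 and 83.8 FPKM with the inhibitor. In the KO co-cultures it was at 96.6, 92.7 and 96.1 FPKM and, with the inhibitor, at 84.1, 82.8, 88.1 and 84.3 FPKM. Within each genotype the ranges did not overlap. Ifnar2, the high-affinity chain for type I interferon, rose by 0.22 ± 0.07 beside WT cells (limma, adjusted p = 0.0140), a call that ended without WT replicate 1 (0.0625) or WT with inhibitor replicate 2 (0.0720). Beside KO cells its log2 difference of 0.15 ± 0.07 did not pass (limma, adjusted p = 0.0584). Ifnar1, the second chain of that receptor, gave differences of -0.07 ± 0.06 and -0.04 ± 0.05 (limma, adjusted p = 0.280 and 0.467), with 95% intervals of -0.19 to 0.05 and -0.15 to 0.07.

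**Figure D2:**
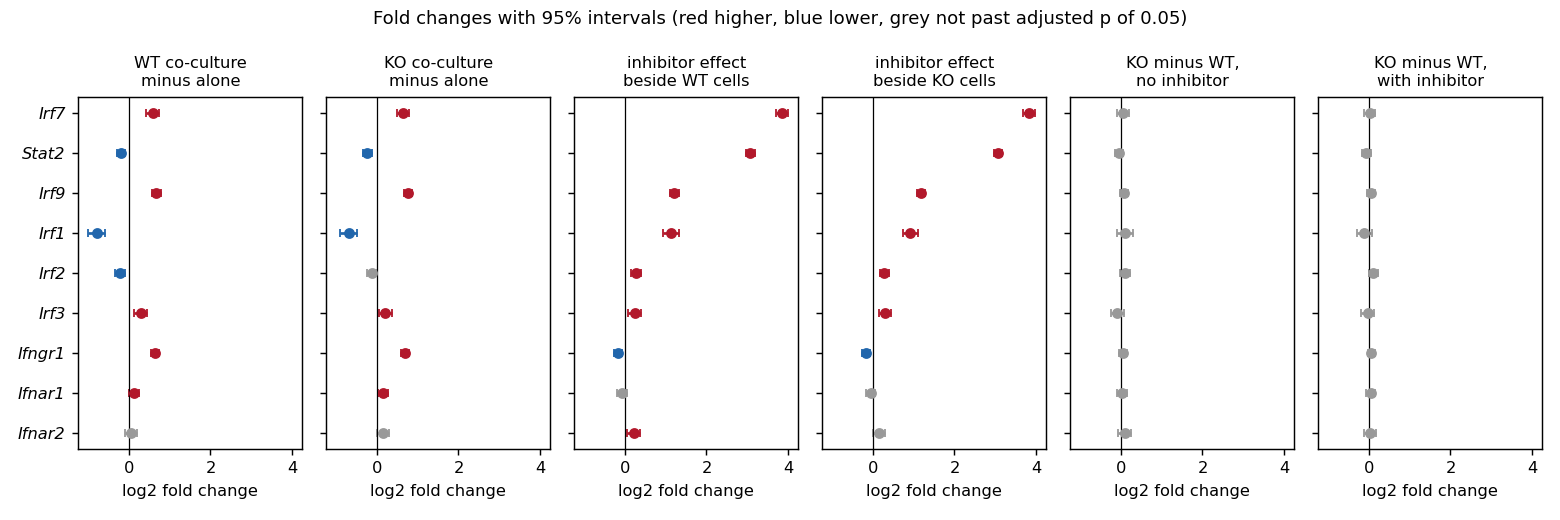
Log2 fold changes (horizontal axes) of the 9 genes (rows) in 6 comparisons, as points with 95% intervals. Red marks genes called higher, blue genes called lower and grey genes not past the threshold of 0.05 on the adjusted p. Irf7 (3.85 and 3.82) and Stat2 (3.07 and 3.06) stand far to the right in both inhibitor panels, and all points of both KO minus WT panels are grey.

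Co-culture without the inhibitor gave a different pattern, with smaller changes that went both ways. Of the 9 genes, 5 were higher and 3 lower beside WT cells than in monoculture, where 30.1% of all genes tested were higher and 31.9% lower. Beside KO cells 5 were higher and 2 lower, against 30.3% and 31.2% of all genes. The medians were 0.13 and 0.16 on the log2 scale, and 0.01 over all genes in each. The share higher lay above that of all genes in both comparisons. The share lower was near that of all genes beside WT and below it beside KO cells. Shares of 9 genes are coarse and were not tested, and both comparisons use the same monoculture libraries.

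Irf9, Ifngr1 and Irf7 were the risers of largest size, in an order that depends on the scale. On log2(FPKM + 1) Irf9 came first, and by the ratio of mean FPKM Irf7 did. Irf9 read 4.64, 4.18 and 4.17 FPKM in monoculture, below all co-culture libraries, and rose by 0.68 ± 0.05 beside WT (limma, adjusted p = 1.09e-08) and 0.76 ± 0.05 beside KO cells (limma, adjusted p = 2.94e-09). Rnf31, which overlaps it, was higher by 0.51 beside WT cells. Ifngr1 read 58.1, 59.7 and 56.9 FPKM in monoculture, the lowest 3 of the 16 libraries. It rose by 0.65 ± 0.05 beside WT (limma, adjusted p = 1.30e-08) and 0.70 ± 0.05 beside KO cells (limma, adjusted p = 5.64e-09). Irf7 stood at 0.481, 0.282 and 0.466 FPKM in monoculture, from 17 to 36 fragments per library, and was higher in every co-culture library. Its log2 fold change was 0.58 ± 0.07 beside WT and 0.64 ± 0.07 beside KO cells (limma, adjusted p = 4.18e-06 and 1.69e-06), and the ratio of mean FPKM was 2.71 and 2.91. With smaller pseudocounts and on recovered fragments this difference was larger, up to 1.48 and 1.57 on the log2 scale.

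Irf1 fell, by 0.79 on the log2 scale beside WT cells (SE 0.09, limma, adjusted p = 3.60e-06) and by 0.69 beside KO cells (SE 0.09, limma, adjusted p = 1.41e-05). It read 12.4, 11.5 and 11.1 FPKM in monoculture, above every co-culture library without the inhibitor and below every library with it. Stat2 was at 3.65, 3.26 and 3.19 FPKM in monoculture and fell by 0.19 beside WT (limma, adjusted p = 0.00449) and 0.23 beside KO cells (limma, adjusted p = 0.00117). The first of these calls ended with quantile normalization (0.0568), on recovered fragments with voom (0.0520) and with only the compared libraries in the fit (0.0647). Irf2 fell by 0.21 beside WT cells (limma, adjusted p = 0.00506), and its difference beside KO cells, -0.12 ± 0.06, did not pass (limma, adjusted p = 0.0869).

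Irf3 rose by 0.30 ± 0.07 beside WT (limma, adjusted p = 0.00301) and 0.21 ± 0.07 beside KO cells (limma, adjusted p = 0.0259), the latter lost without KO replicate 2 (0.145) or monoculture replicate 3 (0.118). Ifnar1 rose by 0.13 ± 0.06 and 0.16 ± 0.06 (limma, adjusted p = 0.0495 and 0.0217). The WT call was lost without any 1 of WT replicates 1 and 3 or the 3 monoculture replicates (adjusted p from 0.0603 to 0.212), and the KO call without KO replicate 3 (0.118) or monoculture replicate 1 (0.0530). Ifnar2 did not pass beside WT (0.06 ± 0.07, limma, adjusted p = 0.477) or KO cells (0.16 ± 0.07, limma, adjusted p = 0.0686).

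Against monoculture, the co-cultures with the inhibitor showed 7 of the 9 genes higher beside WT and 8 beside KO cells, and none lower by limma at adjusted or unadjusted p under 0.05. Over all genes tested 32.1% were higher and 34.7% lower beside WT cells, and 33.3% and 36.1% beside KO cells. Irf7 was 4.44 ± 0.07 and 4.46 ± 0.07 higher on the log2 scale, ranking 9th and 10th among all genes. Stat2 was 2.89 ± 0.05 and 2.83 ± 0.05 higher, and Irf9 1.90 ± 0.05 and 1.95 ± 0.04. Irf1, which co-culture alone had lowered, was 0.34 ± 0.09 and 0.23 ± 0.09 above monoculture (limma, adjusted p = 0.00509 and 0.0269), and the KO call was lost without monoculture replicate 2 or 3 or without KO with inhibitor replicate 1, 2 or 3 (0.0554 to 0.0941). Irf2 passed beside KO cells (0.16 ± 0.05, limma, adjusted p = 0.0143), a call that ended without monoculture replicate 2 (0.0628), and not beside WT cells (0.05 ± 0.06, limma, adjusted p = 0.427).

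The order of the 5 group levels differed between genes. For Irf7 and Irf9 it ran from monoculture through WT and KO to the 2 inhibitor groups, and WT and KO did not pass the test at either step, although the Irf9 ranges of WT and KO without the inhibitor did not overlap. For Stat2 and Irf1 the co-cultures without the inhibitor were lowest, monoculture came next and the inhibitor groups were highest. The Irf1 ranges of WT and KO with the inhibitor did not overlap either, and their difference did not pass (limma, adjusted p = 0.736). For Irf3 monoculture was lowest and the inhibitor groups highest. For Ifngr1 monoculture was lowest, the inhibitor groups came next and the co-cultures without it were highest. No neighbours in the order of Irf2, Ifnar1 or Ifnar2 levels differed. Per length, Ifngr1 was the most abundant of the 9 genes in every group, at 58.2 ± 1.41 FPKM in monoculture and 95.1 ± 2.12 FPKM beside KO cells. Irf7 was the least abundant without the inhibitor (0.410 ± 0.111 FPKM in monoculture, n = 3) and with it stood beside Stat2 (29.5 ± 1.88 and 31.2 ± 0.641 FPKM beside WT cells, n = 3).

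Whether the cancer cells carried or lacked Phgdh made no called difference to any of the 9 genes. Without the inhibitor, 0 of 9 passed between KO and WT co-cultures, by limma at adjusted p (0.469 to 0.892) or unadjusted p under 0.05, and 0 by voom on recovered fragments. The log2 differences ran from -0.09 for Irf3 to 0.10 for Irf1, and the widest 95% intervals reached -0.25 and 0.29. Over all genes tested, 1.65% were higher and 1.34% lower. With the inhibitor, 0 of 9 passed by the same 3 counts, with differences from -0.10 for Irf1 to 0.11 for Irf2 and intervals within -0.29 to 0.23. There 1.66% of all genes were higher and 0.649% lower. The inhibitor effect also showed no called difference between genotypes for any of the 9, by limma at adjusted or unadjusted p under 0.05 or by voom. For Irf7 the effects differed by -0.03 with a 95% interval of -0.23 to 0.17, and for Stat2 by -0.02 with an interval of -0.16 to 0.13. The widest interval was that of Irf1, whose difference was -0.20 (-0.47 to 0.07). Of all genes, 0.535% had a higher and 0.281% a lower effect beside KO cells.

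**Figure D3:**
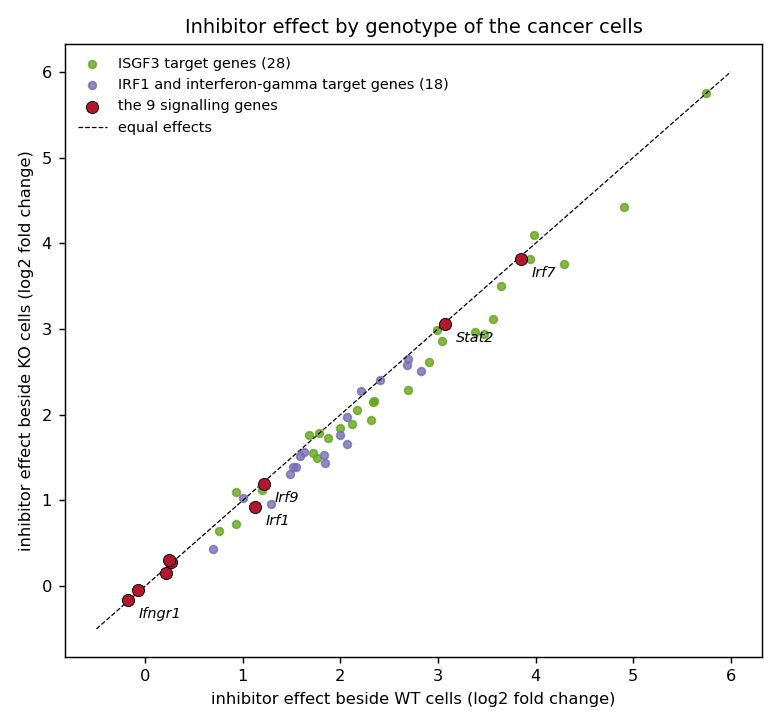
Log2 fold change with the inhibitor beside WT cells (horizontal axis) and beside KO cells (vertical axis), 1 point per gene, for the 9 signalling genes (red), the tested ISGF3 targets (28, green) and the tested IRF1 and interferon gamma targets (18, purple). Of the targets, 15 and 7 averaged under 1 FPKM without the inhibitor and passed the filter through the inhibitor groups. The dashed line marks equal effects, and the 2 axes share no libraries. The 9 genes lie close to it, Irf7 at 3.85 and 3.82.

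The ligands themselves were nearly silent. Of 21 interferon genes in the table, 14 had no fragment in any of the 16 libraries, Ifng among them, and none reached the filter of 1 FPKM. Ifnb1, which encodes interferon beta, had 0 fragments in all 9 libraries without the inhibitor. With it, the WT co-cultures held 27, 22 and 19 fragments (2.05, 1.74 and 1.64 FPKM) and the KO co-cultures 9, 5, 21 and 7 (0.548, 0.334, 1.28 and 0.562 FPKM). Taking 3 fragments over the whole group as the limit that a count of 0 allows, mean Ifnb1 was at least 25.4-fold higher with the inhibitor beside WT and at least 10.1-fold higher beside KO cells. Every library with the inhibitor lay above every library without it, and the exact two-sided permutation p was 0.10 for 3 against 3 libraries and 0.0571 for 4 against 3, each the smallest the design allows. With the inhibitor, Ifnb1 averaged 1.81 ± 0.211 FPKM (n = 3) beside WT and 0.682 ± 0.415 FPKM (n = 4) beside KO cells. These ranges did not overlap, and the exact two-sided permutation p was again 0.0571, above 0.05. Each of the other 6 detected ligands had at most 7 fragments over all libraries. Counts from the near-identical Ifna genes are uncertain, since reads could be shared among them.

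**Figure D4:**
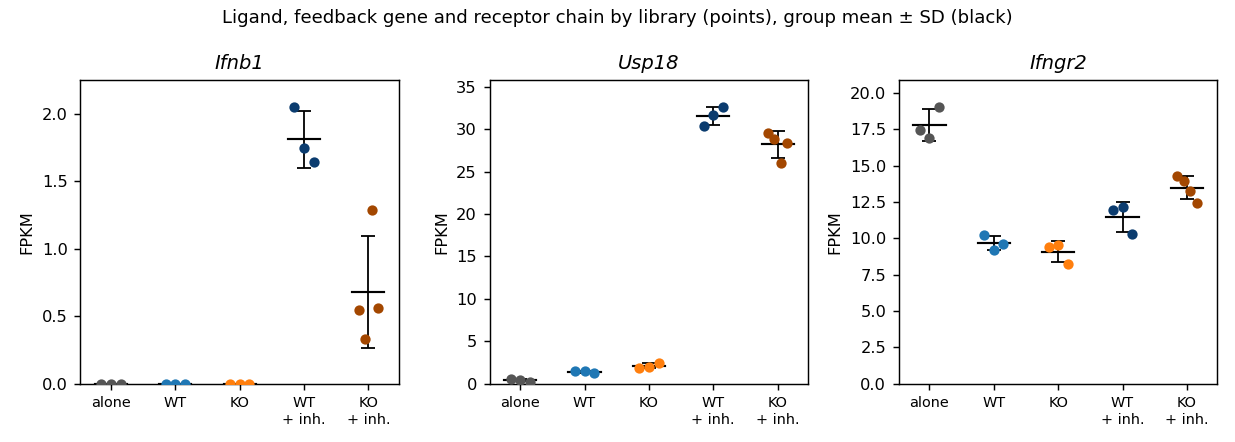
Level in FPKM (vertical axes, starting at 0) of the ligand Ifnb1, the feedback gene Usp18 and the receptor chain Ifngr2 in the 16 libraries, by group (horizontal axes; alone is monoculture, inh. is the CXCR2 inhibitor). Points are libraries and black marks the group mean ± SD. Ifnb1 is at 0 in all 9 libraries without the inhibitor, and Usp18 runs from 0.263 to 2.42 FPKM without and 26.0 to 32.6 FPKM with it.

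Among 6 other receptor chains and kinases, 3 rose and none fell with the inhibitor beside WT cells and 4 rose and none fell beside KO cells, against 33.5% and 34.8% of all genes that rose. Jak1, the kinase that serves both receptors, rose by 0.91 ± 0.05 and 0.76 ± 0.05. Ifngr2, the signalling chain of the interferon gamma receptor, went the other way from Ifngr1. It averaged 17.8 ± 1.09 FPKM in monoculture, 9.68 ± 0.498 beside WT and 9.08 ± 0.723 beside KO cells, a fall by 0.82 and 0.90 on the log2 scale (limma, adjusted p = 1.81e-07 and 6.02e-08). With the inhibitor it rose by 0.22 ± 0.07 and 0.52 ± 0.07, and the WT call was lost without WT replicate 2 (0.0557) or WT with inhibitor replicate 1 or 2 (0.0575 and 0.0623). Jak2, the kinase bound to it, fell against monoculture by 0.35 and 0.50 and did not pass with the inhibitor (-0.03 ± 0.07 and 0.01 ± 0.07, limma, adjusted p = 0.713 and 0.947). Tyk2, the kinase bound to IFNAR1, was 0.20 and 0.17 above monoculture beside WT and KO cells (limma, adjusted p = 0.0227 and 0.0463). The WT call was lost without monoculture replicate 2 or 3 or WT replicate 2 or 3 (0.0600 to 0.103) and the KO call without any 1 of the monoculture or KO replicates (0.0515 to 0.157). With the inhibitor Tyk2 passed beside KO cells and not beside WT cells (0.24 ± 0.06 and 0.16 ± 0.07, limma, adjusted p = 0.00413 and 0.0558), a difference between genotypes that did not pass (0.08 ± 0.09, limma, adjusted p = 0.846).

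The leukocyte factor Irf8 was at 0 in all libraries and Irf4 averaged at most 0.0122 FPKM in any group. Of 6 kinases and scaffolds that act on IRF3 and IRF7, 4 were lower and 1 higher beside WT cells than in monoculture, and 4 lower and 2 higher beside KO cells. Over all genes 31.9% and 31.2% were lower and 30.1% and 30.3% higher. With the inhibitor 3 of the 6 rose and 1 fell beside WT cells, and 2 rose and 2 fell beside KO cells. Over all genes these shares were 33.5% and 33.0%, and 34.8% and 34.7%. The scaffold gene Tbkbp1 was higher than in monoculture beside both WT and KO cells, by 0.56 each, and fell with the inhibitor by 1.04 and 1.08. Ikbke and Tbk1, the kinases that phosphorylate IRF3 and IRF7, fell by 0.58 and 0.44 beside WT cells and rose with the inhibitor by 0.51 ± 0.04 and 0.25 ± 0.07. Of the 10 tested negative regulators, 5 rose and 3 fell with the inhibitor beside WT, and 4 rose and 4 fell beside KO cells, near the shares of all genes (33.5% and 33.0%, and 34.8% and 34.7%). Usp18, the ISG15 protease that also blocks IFNAR2 signalling, averaged 0.434 ± 0.151 FPKM in monoculture, 1.43 ± 0.114 beside WT and 2.12 ± 0.270 beside KO cells (n = 3 each). With the inhibitor it averaged 31.6 ± 1.09 FPKM (n = 3) beside WT and 28.2 ± 1.56 FPKM (n = 4) beside KO cells, a rise of 3.75 ± 0.08 and 3.23 ± 0.07 on the log2 scale (limma, adjusted p = 2.20e-14 and 4.19e-14). Socs3, a feedback inhibitor of JAK kinases, fell against monoculture by 1.67 and 1.64 and rose with the inhibitor by 0.68 ± 0.10 and 0.58 ± 0.10. Socs1 stayed under the filter, at 0.214 to 1.14 FPKM over all libraries.

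Genes on which these factors act were described with 2 lists, without the filter on low values because many list members are low without the inhibitor. Of 30 ISGF3 targets, 30 rose with the inhibitor beside WT and 30 beside KO cells, where 17.5% and 18.5% of the 27086 genes detected rose and 15.2% and 16.3% fell. The median log2 fold change was 2.33 beside WT and 2.10 beside KO cells. With the 2 genes at 0 in the WT group set to their lower bound the WT median was 2.52. Ifitm3, a membrane-bound restriction factor, rose by 5.74 ± 0.20 and 5.75 ± 0.18, from 3.42 ± 0.753 to 234 ± 14.1 FPKM beside WT cells (n = 3 each). Ifit1, which binds foreign RNA, rose by 4.90 ± 0.10 and 4.43 ± 0.09. Of 24 IRF1 and interferon gamma targets, 20 rose and none fell with the inhibitor in each genotype, with medians of 1.56 and 1.41, or 1.60 and 1.52 with genes at 0 at their bounds. H2-K1, a classical MHC class I heavy chain, rose by 2.69 ± 0.06 and 2.58 ± 0.06, and the guanylate-binding protein gene Gbp2 by 2.83 ± 0.09 and 2.51 ± 0.08.

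Against monoculture the 2 lists parted, and the count of ISGF3 targets went both ways. Beside WT cells 8 of 30 ISGF3 targets rose and 9 fell, and beside KO cells 9 rose and 7 fell. Without the filter, 13.4% of genes rose and 15.1% fell beside WT, and 13.2% and 14.7% beside KO cells. Those shares include many genes of low level. Of the 28 ISGF3 targets past the filter, 8 rose and 10 fell beside WT, and 10 rose and 7 fell beside KO cells. These counts lie nearer the shares of all genes tested, 30.1% and 31.9% beside WT, and 30.3% and 31.2% beside KO cells. Ifit2 fell by 1.75 beside WT and 1.57 beside KO cells, while Xaf1, a proapoptotic interferon-induced gene, rose by 0.71 ± 0.09 and 0.70 ± 0.09. The list's median was 0.00 beside WT cells and changed sign between settings (-0.03 to 0.00). Of the IRF1 and interferon gamma targets, 13 of 24 fell and 2 rose beside WT, and 12 fell and 3 rose beside KO cells, with medians of -0.35 and -0.24, or -0.43 and -0.49 with genes at 0 at their bounds. Irgm1, an interferon-inducible GTPase, fell by 1.43 beside WT and 1.21 beside KO cells, and H2-K1 by 1.42 and 1.32. Tap1, the peptide transporter of antigen presentation, rose by 0.62 ± 0.08 and 0.53 ± 0.08. These lists were assembled from textbook knowledge with earlier results of these data known, and some of their genes answer to both interferon classes. H2-K1, Gbp2 and Irgm1 belong to families of similar copies, and how the authors' counting treated shared reads is unknown, so their values are less certain.

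A few targets passed the test between genotypes. Without the inhibitor, 1 of 28 tested ISGF3 targets and 3 of 18 tested IRF1 and interferon gamma targets were higher beside KO cells and none lower. Over all genes tested 1.65% were higher and 1.34% lower. Parp14 was 0.25 ± 0.06, Tapbp 0.25 ± 0.05 and Irgm1 0.23 ± 0.05 higher on the log2 scale (limma, adjusted p = 0.0446, 0.0209 and 0.0209). All 3 calls were lost with only the compared libraries in the fit (0.434, 0.360 and 0.376). With 1 library left out, Parp14 was lost in all 6 fits but that without WT replicate 1 (up to 0.135) and Tapbp in all but that without WT replicate 2 (up to 0.0888), while Irgm1 was lost without KO replicate 1 or 3 (0.0632 and 0.0916). With the inhibitor, 3 of 28 and 1 of 18 were lower beside KO cells and none higher, where 0.649% of all genes were lower and 1.66% higher. Ifit3, a partner of IFIT1, was lower by -0.53 ± 0.09 and Cd274, which encodes the checkpoint ligand PD-L1, by -0.42 ± 0.08 (limma, adjusted p = 0.00749 and 0.0155). Both calls ended with a pseudocount of 0.1 (0.272 and 0.0660), and that of Cd274 also without WT with inhibitor replicate 1 or 3 (0.0799 and 0.0817). Ifit3b, counted among the 3, was lost in 6 of 7 fits with 1 library left out (0.0508 to 0.168), all but that without KO with inhibitor replicate 2. Usp18 was 0.36 ± 0.08 higher beside KO cells without the inhibitor (limma, adjusted p = 0.0279). That call was lost without WT replicate 2 or 3 or KO replicate 2 or 3 (0.0583 to 0.123), and with a pseudocount of 0.1, no filter, voom, the replicate block or only the compared libraries (0.0608 to 0.271). With the inhibitor the Usp18 difference of -0.16 ± 0.07 did not pass (limma, adjusted p = 0.413).

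**Figure D5:**
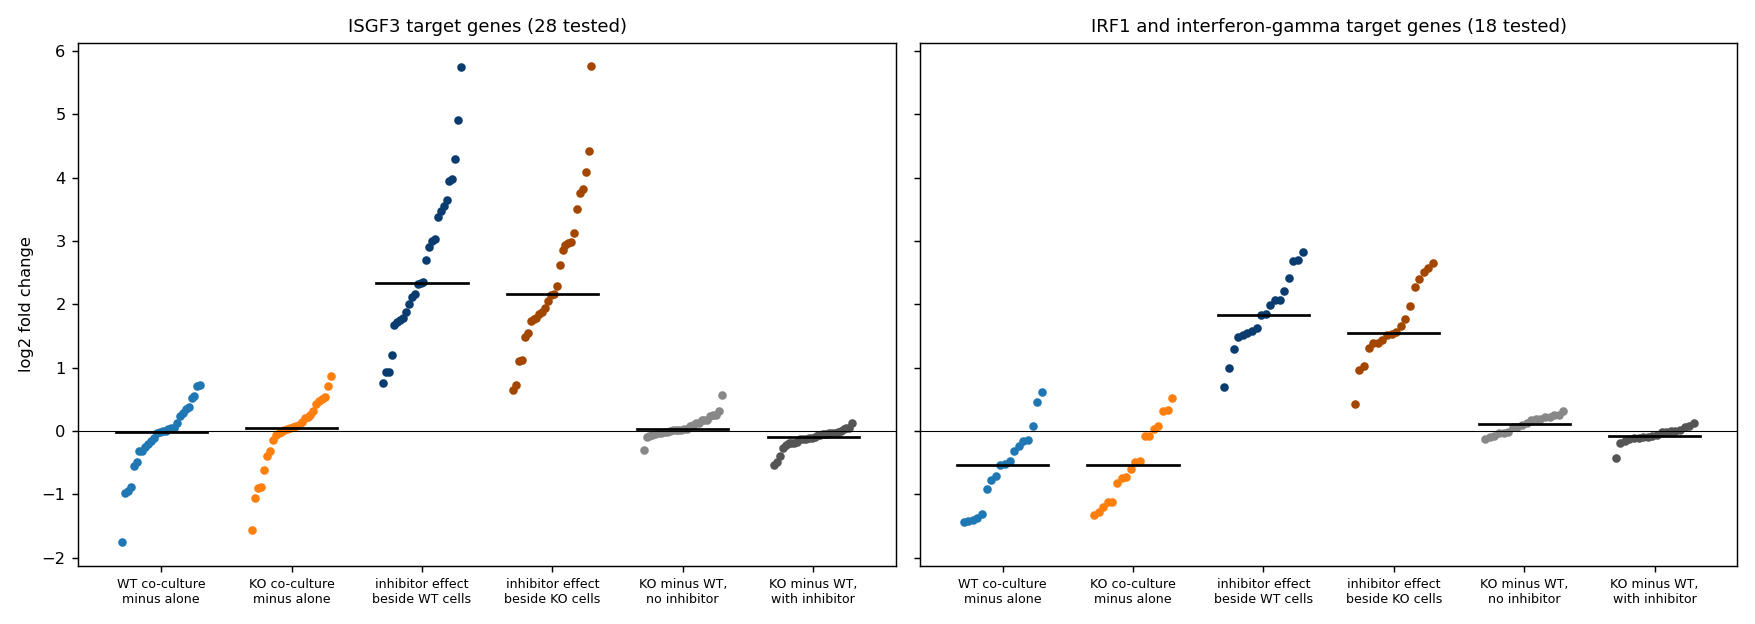
Log2 fold changes (vertical axes) of the tested ISGF3 targets (28, left panel) and IRF1 and interferon gamma targets (18, right panel) in 6 comparisons (horizontal axes), 1 point per gene in order of size, black bars at the medians. Of these targets, 15 and 7 averaged under 1 FPKM without the inhibitor. They passed the filter through the inhibitor groups, which favours high values in the inhibitor comparisons. Without the filter, 30 of 30 and 20 of 24 listed genes rose with the inhibitor beside WT cells, and 8 and 2 rose against monoculture.

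Markers of cell types that make or answer interferon strongly were checked beside these results. Of 11 Kupffer cell and macrophage markers, 7, among them Adgre1 and Clec4f, were at 0 in all 16 libraries, and 1, Cd68, passed the filter. Their sum was 0.501 to 1.58 FPKM without and 4.01 to 5.75 FPKM with the inhibitor, mostly Cd68. No marker of endothelial cells, neutrophils or stellate cells passed the filter, and their sums reached at most 0.422 FPKM. The sum of 8 plasmacytoid dendritic cell and lymphocyte markers was 64.5 to 98.9 FPKM without and 232 to 270.4 FPKM with the inhibitor, and most of it was Bst2, itself an interferon-induced gene. The part of Cd68 and Bst2 in the results was not tested.

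The genes most alike to 8 of the 9 genes over the 16 libraries were sought among 10217 protein-coding genes by Pearson correlation of log2(FPKM + 1). The libraries fall into separate groups, so these values mostly compare group means and are descriptions. Stat2 was most alike to Pilrb1 (0.998), Thsd4 and Iigp1, and Irf7 to Trim30d (0.998), Tsc22d3 and Adm. Irf9 was most alike to Nrbp2 (0.996), Kmt2a and Mndal. Irf1 came with Furin (0.984), Fam129b and Bag6, Irf2 with Fam171b (0.938), Cys1 and Rapgef1, and Irf3 with Spint2 (0.957), Cpsf1 and Trim39. Ifngr1 was most alike to Yars (0.984), Gramd1b and Cebpg, and Ifnar1 to Yipf6 (0.890), Hps5 and Zfp236. Iigp1 and Trim30d belong to interferon-inducible gene families, and Iigp1 is also on the list of IRF1 and interferon gamma targets above. Without the inhibitor Iigp1, Thsd4 and Trim30d averaged at most 0.135, 0.0803 and 0.616 FPKM in any group. They passed the filter through the inhibitor groups, so their likeness to Stat2 and Irf7 is no separate result.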

How the data were processed

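The deposited table holds FPKM values that the authors made for 54532 genes in 16 libraries, with a gene length for each. Extraction used an RNeasy mini kit and library preparation was by Novogene's protocols, per the labels' protocols. HISAT2 and the builds GRCm38 and mm10 are named, per the submitters' processing notes. Strandedness, annotation release and counting tool were not given in the sources used here. Of the gene identifiers, 54409 were found in GENCODE M21. Multiplying FPKM by gene length gave whole multiples of 1 step per library (100% of values within 0.1), so fragments could be recovered, at 15.002 to 21.3 M per library. The floor of 3 fragments covers counting error only, while the 95% intervals come from the spread between libraries.

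With limma 3.58.1 (R 4.3.3), log2(FPKM + 1) of the 16 libraries was modelled by group means (11 residual degrees of freedom, variance trend). Genes with a mean of at least 1 FPKM were tested, 11395 in all, two-sided, with Benjamini-Hochberg adjustment and a threshold of 0.05, in 9 comparisons. The fit was tested on simulated data. Alternatives were pseudocounts of 0.1 and 0.5, no filter and a filter of 5 FPKM, quantile normalization, 2 other scalings, voom on recovered fragments, no variance trend, the replicate number as a block, only the libraries compared, and each library left out. Named are the 9 genes, the partners Jak1, Jak2, Tyk2, Ifngr2, Socs1, Usp18, Ifnb1 and Ifng, and from each list the 2 genes changed most each way in a comparison. Genes said to be at 0 or under the filter, and the cell type markers named, were chosen after their values were seen. Some genes that this rule names are not reported here. Promoter sequences are RefSeq's. The 9 genes and all lists were chosen with earlier results of these data known.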

Additional observations from a re-analysis of the deposited data

Results flagged for a closer look

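Irf1 in KO with inhibitor replicate 4 was at 12.4 FPKM, far from the other 3 libraries of its group (14.2 to 14.5 FPKM). It was the 1 outlying value among the 9 genes, each tested in this group of 4. Chance alone gives a flag in about 1 in 20 of such tests, and 9 were made. Without it Irf1 stayed higher with the inhibitor beside KO cells.

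Usp18 rose less with the inhibitor beside KO than beside WT cells, and the KO effect minus the WT effect was -0.51 on the log2 scale (SE 0.11, limma interaction, adjusted p = 0.0463). Its libraries lay higher beside KO than WT cells without the inhibitor (1.91, 2.02 and 2.42 against 1.51, 1.47 and 1.30 FPKM) and lower with it (29.6, 28.9, 26.0 and 28.4 against 30.4, 31.7 and 32.6 FPKM). Irgm1 showed the same kind of difference, -0.33 (SE 0.07, limma interaction, adjusted p = 0.0398), with 9.43, 9.23 and 9.80 against 8.26, 7.20 and 8.47 FPKM without the inhibitor and 19.9, 19.1, 19.4 and 19.3 against 20.6, 20.9 and 21.2 FPKM with it. The Usp18 call was lost in 12 of 13 and the Irgm1 call in 10 of 13 fits with 1 library left out, Usp18 keeping it only without WT replicate 1 and Irgm1 only without any 1 of the 3 WT replicates. The adjusted p of Usp18 ranged from 0.0361 to 0.229 over its alternatives and that of Irgm1 from 0.0259 to 0.105, and in the fit with the replicate block both were lost (0.126 and 0.0825).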

How the results depend on the processing

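The number of the 9 genes called kept within 1.5 times of its main value in 163 of 163 alternative fits, from 6 to 8 for either co-culture against monoculture, 7 or 8 for the inhibitor in either genotype and 0 for all 3 comparisons of genotypes. Of 780 alternative values of calls on single members, 751 stayed past the threshold in the same direction and 29 lost it. These 29 belong to Ifnar1, Ifnar2, Stat2, Irf1, Irf2 and Irf3. Of 687 values not past the threshold, 13 passed it under an alternative and 28 changed sign. Counts over all genes were less stable. The difference of the inhibitor effects was called for 93 genes, 55 with no filter on low values, 34 with the replicate block, 41 with only the libraries compared and 31 to 120 with 1 library left out. KO against WT without the inhibitor had 341 calls, 17 with only the libraries compared and 157 to 398 with 1 library left out, and with the inhibitor 263, or 123 to 221 with 1 library left out. In the replicate block fit, where KO with inhibitor replicate 4 has no partner and carries no weight, no call on the 9 genes changed. The labels tie the numbers to no shared source, and deviations of same-numbered libraries correlated at -0.300 to 0.270 (median 0.0104 over 30 pairs, 9 of them best with their own number). On recovered fragments with voom 2 small differences changed sign, Ifnar1 with the inhibitor beside KO cells (0.0032) and the Stat2 difference of inhibitor effects (0.0026). Leaving out 1 library changed the sign of differences that were never past the threshold. Their ranges were -0.0830 to 0.0116 for Ifnar1 with the inhibitor beside KO cells, -0.0285 to 0.0809 for Ifnar1 KO against WT without the inhibitor and -0.00302 to 0.0890 for Irf7 in that comparison. For KO against WT with the inhibitor they were -0.0245 to 0.0817 (Ifnar2) and -0.0281 to 0.0548 (Irf7). For the difference of inhibitor effects they were -0.0286 to 0.0808 (Ifnar1), -0.0417 to 0.0422 (Ifngr1), -0.0209 to 0.0528 (Irf2), -0.0819 to 0.0269 (Irf7), -0.0696 to 0.00633 (Irf9) and -0.0502 to 0.00208 (Stat2). The cause of these shifts was not tested. Another scaling moved the median of all genes by less than 0.1 on the log2 scale. Depth limits Irf7 in monoculture (17 to 36 fragments) and Ifnb1 everywhere.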
